A study of Mus musculus with 4 samples.

Results

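RFX2 peaks of mouse testis that were found in both replicates, yet stood in neither the combined peak list nor a promoter, are described here. The assay was ChIP-seq, in which an antibody against RFX2 pulls down the chromatin that the protein occupies and the recovered DNA is sequenced. There were 4 samples, all from testis of wild type mice, namely 2 RFX2 ChIP replicates and 2 inputs of chromatin sequenced without immunoprecipitation. Per the labels the tissue was decapsulated testis at postnatal day 29 to 30, of a mixed background of C57BL/6, 129/Sv and FVB/N. The study's text instead speaks of germ cells from younger mice, and this discrepancy is unresolved. No Rfx2-deficient sample entered this comparison, and the inputs entered only through the authors' peak calls. Either material mixes germ cells of several stages, and whole testis adds somatic cells, so no peak can be given to a cell type. Read depth is unknown for all 3 lists.

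The 3 peak lists were replicate 1 with 39825 peaks, replicate 2 with 21274 and a combined list of 2726. Members were chosen by overlap, and not by the study's own filter for peaks reproducible between its replicates. A peak of replicate 1 was a member if it shared at least 1 bp with a peak of replicate 2, overlapped no peak of the combined list, and overlapped no promoter. A promoter ran from 1000 bp upstream to 500 bp downstream of the 5′-most transcription start site (TSS) of a protein-coding gene. Of all replicate 1 peaks, 8060 (20.2%) were met by replicate 2, of which 5303 were not in the combined list and 4779 of these lay outside promoters. The 4779 members covered 2.22 Mb. Beside them stand 3 other sets of replicate 1 peaks, namely 1914 outside promoters that were met by replicate 2 and the combined list (strong peaks), 31037 outside promoters that were met by neither (unreplicated peaks), and 524 weak replicated peaks in promoters.

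RFX2 is a member of the Regulatory Factor X family of winged-helix transcription factors. Members of the family bind the X-box, an inverted repeat of short arms on either side of a central dinucleotide, and several of them bind it as homodimers or heterodimers. In the testis RFX2 is known from pachytene spermatocytes and round spermatids, and RFX proteins in general are known as regulators of genes for cilia and flagella. ChIP-seq with an antibody against one member of the family does not tell which partner was bound beside it.

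Sequences are shown first, for members that held an X-box in the centre. Of the 2123 of 4779 members without one there, none is printed. The X-box was searched as the 14-bp palindrome GTTGCCATGGCAAC with at most 3 mismatches, wholly inside the 200 bp around the peak centre. The palindrome reads the same on both strands. All sequences are the plus strand of build GRCm38, 5′ to 3′, with the best match to the palindrome in capitals. Substitutions are numbered from 1, starting with the palindrome's 5′ base, and name the palindrome's base first. Of the 43 members with an exact palindrome, 4 of the 8 with the highest replicate 1 score are printed, for the bases that surround an intact X-box.
Olfm1, chr2:28247258-28247351: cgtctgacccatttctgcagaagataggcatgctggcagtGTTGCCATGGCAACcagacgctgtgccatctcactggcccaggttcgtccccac
Gas7, chr11:67571129-67571222: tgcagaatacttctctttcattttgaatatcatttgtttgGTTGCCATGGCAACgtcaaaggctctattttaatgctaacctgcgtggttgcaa
Pde3a, chr6:141102413-141102506: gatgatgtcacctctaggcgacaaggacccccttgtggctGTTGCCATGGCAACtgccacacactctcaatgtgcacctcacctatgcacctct
Adcyap1r1, chr6:55421209-55421302: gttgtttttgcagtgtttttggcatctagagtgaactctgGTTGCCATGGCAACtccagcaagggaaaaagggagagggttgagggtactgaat
The X-box of Gas7 lay in an intron and the others in intergenic sequence. These are named by the nearest TSS, 54.3 kb away for Olfm1, 146.9 kb for Pde3a and 30.7 kb for Adcyap1r1.

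Most X-boxes of members were imperfect. The following are shown for their substitutions. They come from the member near Tnp1 (transition protein 1 of the spermatid nucleus), the member in an intron of Cacna1h (a T-type calcium channel subunit), and members in introns of Fndc3a (required for adhesion of spermatids to Sertoli cells), Pard3b (a cell polarity protein) and Rfx2 itself.
Tnp1, chr1:73042378-73042471: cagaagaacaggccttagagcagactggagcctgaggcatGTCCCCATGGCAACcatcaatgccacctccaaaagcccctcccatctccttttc
Cacna1h, chr17:25419022-25419115: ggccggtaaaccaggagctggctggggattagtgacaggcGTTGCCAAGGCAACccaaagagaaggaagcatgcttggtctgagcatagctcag
Fndc3a, chr14:72669363-72669456: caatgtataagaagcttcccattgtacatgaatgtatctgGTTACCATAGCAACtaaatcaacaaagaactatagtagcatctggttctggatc
Pard3b, chr1:62567981-62568074: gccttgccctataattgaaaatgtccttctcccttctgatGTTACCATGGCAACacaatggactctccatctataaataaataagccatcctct
Rfx2, chr17:56819916-56820009: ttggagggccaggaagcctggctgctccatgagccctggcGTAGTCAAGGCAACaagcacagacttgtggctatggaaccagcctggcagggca
The substitutions were T3C and G4C near Tnp1, T8A in Cacna1h, G4A and G9A in Fndc3a, G4A in Pard3b, and T3A, C5T and T8A in Rfx2. For members that overlapped exons of 2 other family genes, only the X-box and 8 bases to each side are given.
Rfx1, chr8:84084022-84084051: ctgccctaGTTGCCATGGTTACcatactcg
Rfx3, chr19:27813685-27813714: atgcatctGTTACCATGACAACacaacaga
These carried C11T and A12T in Rfx1, and G4A and G10A in Rfx3.

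In the median, members scored below strong peaks in both replicates and above unreplicated peaks in replicate 1. The choice of members fixed this in part. Scores are −log10 values assigned by MACS2. The median member scored 13.4 in replicate 1, the lowest 2.09 and the highest 51.7, and 80% stood between 5.08 and 27.9. For the replicate 2 peaks they met, the median was 6.03, the lowest 2.23 and the highest 28.7, and 80% stood between 4.03 and 11.5. Strong peaks had medians of 57.4 in replicate 1 and 20.7 in replicate 2, and unreplicated peaks had a median of 4.47 in replicate 1. No test was made, since overlap and score chose the sets. The score ranges overlapped, with 173 members above the lowest 10% of strong peaks and 821 strong peaks at or below the highest member. Ranks of members had medians of 6426 among the 39825 replicate 1 peaks and 6002 among the 21274 replicate 2 peaks. They spanned 1706 to 39808 in replicate 1 and 1101 to 21268 in replicate 2, so that some members reached the last peaks of both lists.

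**Figure D1:**
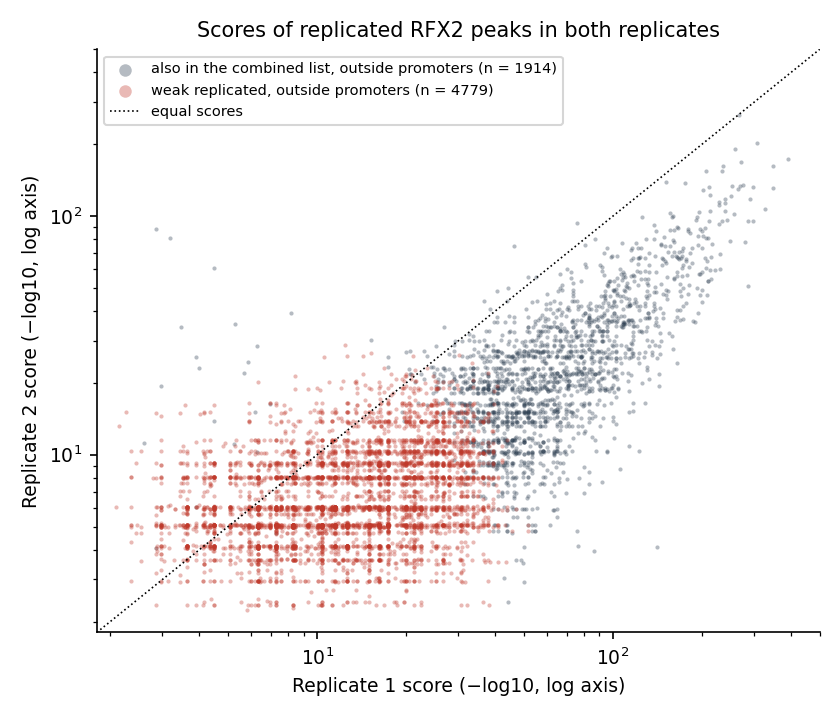
Each point is a replicate 1 peak outside promoters, with its replicate 1 score on the x axis and the score of the replicate 2 peak it met on the y axis, both on log axes. The 4779 members, in red, fill the lower left, with medians of 13.4 and 6.03, and 83.7% of them lie below the dotted line of equal scores. The rows and columns of points are scores that many peaks share.

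Scores of members were coarse and only loosely related between replicates. They took 805 distinct values in replicate 1 and 330 in replicate 2, where 343 members met a peak with the same score of 5.06. Spearman's rho between the scores of the pairs was 0.306 (n = 4779), a description over peaks that share libraries and were chosen by their overlap. Replicate 1 gave the higher score in 4000 members (83.7%). The overlap with replicate 2 was 212 bp in the median, from 1 to 796 bp, and the peak centres of the replicates lay 63 bp apart in the median, as far as in strong peaks (63 bp). Members were 435 bp wide in the median, against 869.5 bp for strong and 177 bp for unreplicated peaks. The 4779 members met 4729 distinct peaks of replicate 2, 116 met several, and 100 shared their partner with another member.

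The peaks nearest each limit of the choice are given with no test. The member with the shortest overlap, 1 bp, lay at chr1:36834406-36834687 with scores of 9.96 and 5.95. An unreplicated peak at chr1:74901727-74902068 with a score of 7.21 touched a replicate 2 peak without overlap. The member nearest to the combined list, at chr17:84552157-84552864, stood 85 bp from a combined peak with scores of 35.1 and 8.02. Just outside, a peak at chr10:27891471-27891661 shared 29 bp with a combined peak and had scores of 2.96 and 5.06. The member nearest to a promoter, at chr17:8283405-8283789, abutted that of Mpc1, with scores of 25.2 and 13.1. A peak at chr5:134184516-134184777 shared 12 bp with the promoter of Gtf2ird2 and had scores of 18.8 and 15.6.

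Most members held an X-box, although the sequence played no part in their choice. An X-box lay in the central 200 bp of 2656 members (55.6%, 95% Wilson interval 54.2 to 56.98), against 58 (1.21%, 0.940 to 1.57) of the windows 1000 bp to the right of the same peaks. It was present in the centre alone in 2618 members and in the flank alone in 20 (exact McNemar test, two-sided, log10 p = -744). Over all replicate 1 peaks the share was 22.2%. Searched over the whole peak, 67.4% of members held an X-box. Intervals and tests cover counting error over peaks only, since peaks of the same libraries are not replicates and read depth is unknown.

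The members stood closer to strong peaks than to unreplicated ones in X-box share. Strong peaks held one in 62.5% (1197 of 1914), above the share of members (members minus strong peaks -6.96 points, with a Newcombe interval of -9.53 to -4.36; Fisher's exact test, Benjamini-Hochberg adjusted p = 2.6e-07). Unreplicated peaks held one in 14.5% (4508 of 31037), a difference of 41.1 points (39.6 to 42.5, log10 of the exact adjusted p = -774). Weak replicated peaks in promoters held one in 26.7% (140 of 524), 28.9 points less often than members (24.7 to 32.7, exact adjusted p = 2.3e-36). Flank windows of these sets stood at 1.10%, 0.851% and 0.763%. The difference from strong peaks was no longer called when both peaks had to share 50% of their length (-2.63, exact adjusted p = 0.155), while between peaks of 400 to 800 bp it was -6.46 (exact adjusted p = 0.0047). It widened to -13.0 in a window of 400 bp (exact adjusted p = 4.2e-27) and to -16.6 over the whole peak (exact adjusted p = 3.3e-45), where 84.0% of the wider strong peaks held an X-box.

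Since members and unreplicated peaks differed in score, they were also compared within 7 bands of the replicate 1 score. Members held an X-box in 35.9% of peaks at scores of 2 to 4, 49.4% at 4 to 6, 47.4% at 6 to 8, 54.97% at 8 to 12, 58.7% at 12 to 20, 60.9% at 20 to 30 and 62.8% at 30 to 60. Unreplicated peaks held one in 5.74%, 10.3%, 18.03%, 47.7%, 56.1%, 56.8% and 64.2%, in the same order. In the lowest band 217 members exceeded 10695 unreplicated peaks by 30.2 points (24.1 to 36.8, exact adjusted p = 8e-39), and at 4 to 6 the difference was 39.1 points (34.3 to 43.9). At 8 to 12 it was 7.31 points (3.35 to 11.2, exact adjusted p = 5.5e-04). At 12 to 20 a difference was not called, at 2.64 points (-1.41 to 6.69, exact adjusted p = 0.286), nor at 20 to 30, at 4.12 (-2.90 to 11.3, exact adjusted p = 0.302), nor at 30 to 60, at -1.42 (-13.0 to 11.4, exact adjusted p = 0.891). A difference was thus called in the 4 bands below a score of 12 and in none of the 3 above, where the intervals left room for differences of up to 13.0 points. How the difference changed from band to band was not tested.

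**Figure D2:**
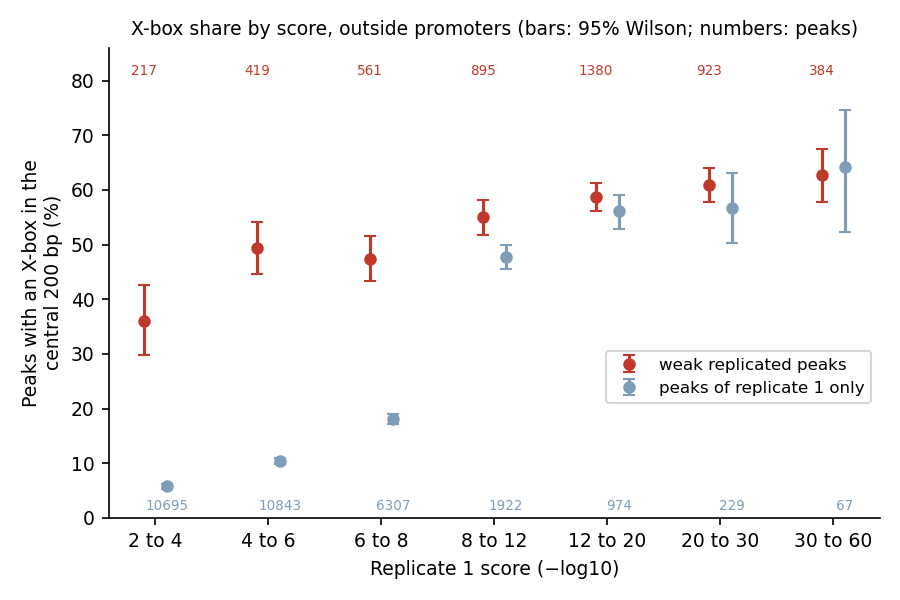
Share of peaks with an X-box in the central 200 bp (y axis, percent) by band of the replicate 1 score (x axis), for members in red and unreplicated peaks in blue, with 95% Wilson intervals and the number of peaks in each band. Members start at 35.9% and unreplicated peaks at 5.74%, and from a score of 12 the intervals of both overlap.

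The X-box share was also taken by the score of replicate 2. In 4 equal groups of members from the lowest to the highest replicate 2 score it was 52.2%, 54.3%, 56.4% and 59.3%, with neighbouring intervals that overlapped. Members with tied scores of 4.99, 6.03 or 9.19 fell on both sides of a group limit, split by their order in the list. The intervals of the lowest group (49.4 to 55.04) and the highest (56.5 to 62.1) did not overlap. Members with an X-box had a median replicate 1 score of 14.98 and those without of 12.2, while the median replicate 2 score was 6.03 in both.

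The X-boxes of members were further from the palindrome than those of strong peaks. Of the members, 43 (0.900%) held an exact palindrome, 12.1% a match with 1 mismatch, 24.5% with 2 and 18.1% with 3. In strong peaks these shares were 6.27%, 21.6%, 21.2% and 13.5%. Among unreplicated peaks 10 of 31037 held an exact palindrome and 1.29% a match with 1 mismatch. With at most 2 mismatches allowed, members fell 11.6 points below strong peaks (difference -11.6, exact adjusted p = 8.1e-18).

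**Figure D3:**
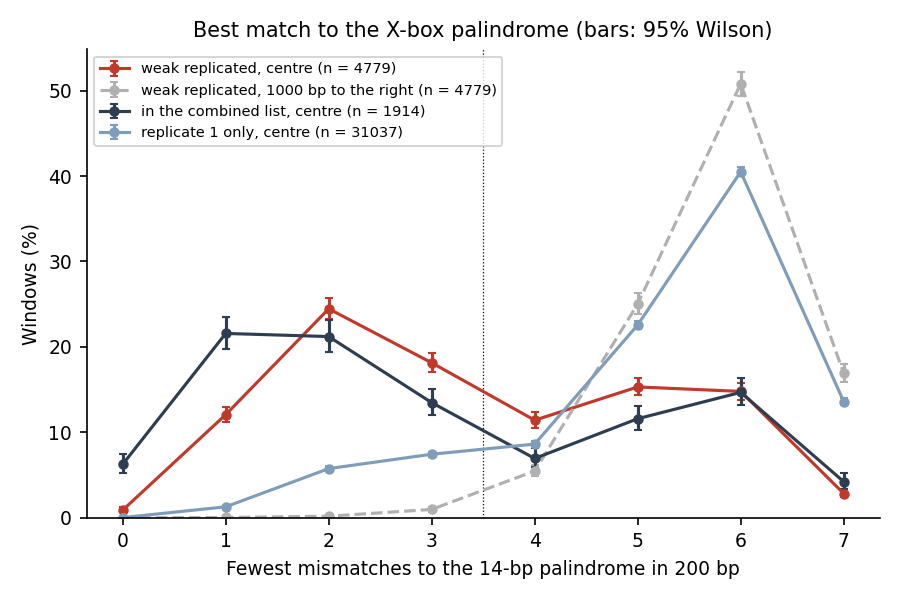
Fewest mismatches to the 14-bp palindrome in 200 bp (x axis) against the percent of windows (y axis), with 95% Wilson intervals and a dotted line at the limit for an X-box. Members peak at 2 mismatches (24.5%) in their centre and at 6 in their flank (50.8%), and strong peaks hold more matches with 0 or 1.

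Within the X-box, positions were kept unevenly. Averaged over both arms, the outermost G was kept in 92.9% of the 2656 boxes, the T beside it in 95.8% and the next T in 80.5%. The G at position 4, with its mirror C at 11, was kept least, in 65.2%, followed by 86.6% and 86.3% at the pair of C and 88.8% at the central dinucleotide. Strong peaks kept position 4 and its mirror in 76.2% and unreplicated peaks in 60.1%. The most frequent substitutions of members were C11T in 413 boxes (15.5%) and G4A in 406 (15.3%), which are mirror images of each other, as in the Pard3b, Fndc3a and Rfx3 sequences above. These shares are descriptions, since the search itself limits how many positions can differ.

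Within the searched window, X-boxes leaned towards the peak centres. The search itself set part of this nearness, since a box had to lie wholly inside the 200 bp. Boxes elsewhere in a peak are left out here. The centre of the best box was 37 bp from the replicate 1 peak centre in the median, with the middle 50% of boxes between 18 and 60 bp. Of the 2656 boxes, 1764 (66.4%) lay within 50 bp, where 54.0% of the searched positions lie. From the centre of the replicate 2 peak, which did not place the window, the median was 40 bp, and from the mean of both centres 29 bp. In 62 members (2.33%) the window held more than 1 matching start.

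**Figure D4:**
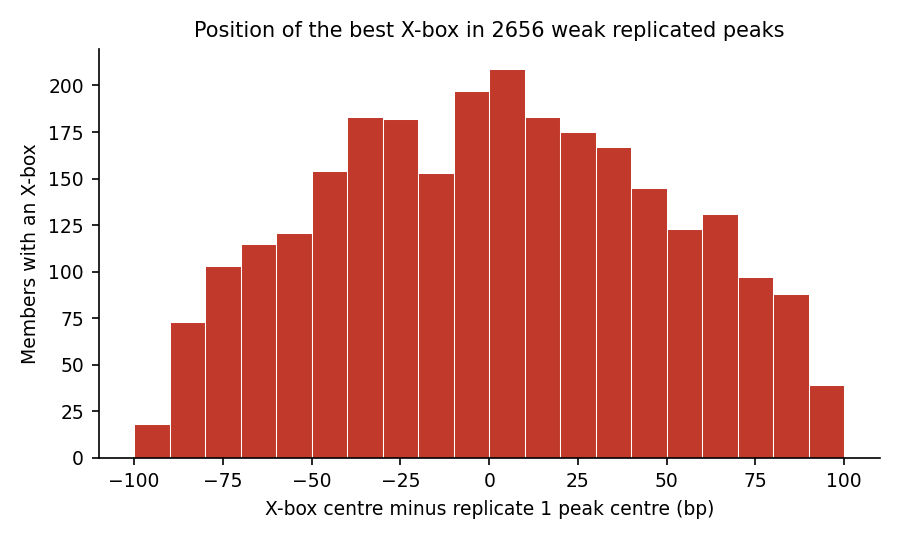
Number of members (y axis) by distance of the best X-box from the replicate 1 peak centre in bp (x axis, bins of 10 bp), for 2656 members. Counts are highest at the centre, and the outermost bins are low also because a box had to lie wholly inside the window.

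Members without an X-box were 2123, of which 575 held one elsewhere in the peak. A single intact arm, GTTGCCA on either strand, stood in 302 of the 2123 (14.2%, 12.8 to 15.8), against 37 (1.74%) of their flanks. It was in the centre alone in 298 of 331 discordant members (exact McNemar test, p = 1.6e-54). Among the 1548 with no X-box anywhere in the peak, 17.2% held an intact arm. Over all members the arm was present in 37.0% of centres and 1.76% of flanks, against 48.5% of the centres of strong and 9.66% of unreplicated peaks.

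Other motifs differed less between centre and flank. Of 9 motifs searched on both strands, 4 were more frequent in the centre than in the flank by exact McNemar tests adjusted over the 9. The sequence CAACTG, bound by MYB factors such as A-MYB, a regulator of meiosis in spermatocytes, stood in 17.2% of centres and 9.69% of flanks (exact adjusted p = 1.5e-26). Its letters partly match the end of the palindrome, and with matches over an X-box left out the share was 12.2% (exact adjusted p = 2.4e-04). The GC box GGGCGG, bound by SP factors, stood in 4.77% against 2.80% (exact adjusted p = 1.1e-06). The cyclic AMP response element TGACGTCA, bound by CREM and CREB, stood in 26 centres and 2 flanks (0.544% and 0.0418%, exact adjusted p = 9.1e-06). The ETS motif CCGGAAG stood in 1.30% against 0.774% (exact adjusted p = 0.030), and with matches over an X-box left out in 1.26% (exact adjusted p = 0.0495). The number of motifs called was 3 with promoters of every TSS left out, with a reciprocal overlap of 50% or with replicate 2 peaks as members. It was 5 with the flank to the left. No difference was called for CCAAT (25.1% and 26.1%, exact adjusted p = 0.417), the nuclear receptor site AGGTCA (12.8% and 12.03%, exact adjusted p = 0.417), AP-1 TGANTCA (5.73% in both), the E-box CACGTG (2.55% and 2.57%) or the CTCF core (0.167% in both). Over all replicate 1 peaks the centre shares were 13.2% for CAACTG, 3.59% for GGGCGG, 0.319% for TGACGTCA and 1.09% for CCGGAAG. In strong peaks they were 18.3%, 6.84%, 0.993% and 1.46%, in the same order and each above the share of members. In unreplicated peaks they were 12.3%, 1.62%, 0.145% and 0.580%. Motif shares of members were not tested against either set.

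Members were mostly intergenic or intronic. Of the 4779, 2602 (54.4%) were intergenic, 1787 (37.4%) intronic and 390 (8.16%, 7.42 to 8.97) overlapped an exon of a protein-coding transcript. The exon share was 6.31 points lower than in strong peaks (difference -6.31, -8.12 to -4.60, exact adjusted p = 9.7e-14) and 4.01 points higher than in unreplicated peaks (3.24 to 4.85, exact adjusted p = 3.0e-29). The sets differed in width, and with only the peak centre counted the differences were -1.74 (exact adjusted p = 0.0040) and 1.51 points (exact adjusted p = 5.4e-08). With promoters of every TSS left out, members differed from strong peaks by -2.73 points (exact adjusted p = 4.2e-04), and with replicate 2 peaks as members the difference from unreplicated peaks was 2.07 (exact adjusted p = 2.1e-07). X-box shares were 61.0% in exonic, 57.6% in intronic and 53.3% in intergenic members.

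Some members lay at a start site that the promoter rule did not use. An alternative TSS of a protein-coding gene, or a TSS of another gene type, was within the same promoter distance of 505 members (10.6%, 9.73 to 11.5). The share was lower than in strong peaks (difference -6.78, -8.73 to -4.91, exact adjusted p = 3.5e-13) and higher than in unreplicated peaks (difference 5.81, 4.94 to 6.75, exact adjusted p = 9.7e-50). Of the 505, 238 met an alternative TSS of a protein-coding gene and 267 only other types. Start sites of lincRNA genes were met by 130 of all 505 and antisense ones by 58, since a member may meet several types. These 505 held an X-box in 46.5% (42.2 to 50.9), the other members in 56.6% (55.2 to 58.1). The 3 highest replicate 1 scores among them, singled out after their values were seen, were 51.7 inside Dlg2 at the antisense gene 4930567K12Rik, and 40.9 each at the lincRNA gene 4930484H19Rik and at an alternative TSS of Fmn1.

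Few members were rich in CpG. The central 200 bp had at least 50% G+C and an observed over expected CpG of at least 0.6 in 101 members (2.11%), in 5.69% of strong peaks (difference -3.58, -4.77 to -2.53, exact adjusted p = 8.9e-13) and in 0.380% of unreplicated peaks (difference 1.73, 1.35 to 2.19, exact adjusted p = 1.0e-31). Requiring 55% G+C and a CpG ratio of 0.65 gave differences of -2.20 and 1.04 points, and the difference from unreplicated peaks was 1.12 with promoters of every TSS left out and 2.62 with a reciprocal overlap of 50%. Median G+C was 47.0% in members, 48.5% in strong, 41.5% in unreplicated peaks and 57.5% in weak promoter peaks. The 101 CpG-rich members held an X-box in 39.6%. The peak centre lay in a soft-masked repeat in 14.1% of members, in 13.6% of strong peaks (difference 0.519, -1.35 to 2.30, exact adjusted p = 0.612; with at least 50% of the peak soft-masked as the rule, 2.68, exact adjusted p = 5.7e-07) and in 18.1% of unreplicated peaks (difference -3.98, -5.03 to -2.88, exact adjusted p = 9.2e-12). Reads with several locations had been discarded for every list, and the repeat shares were not compared with that of the genome.

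**Figure D5:**
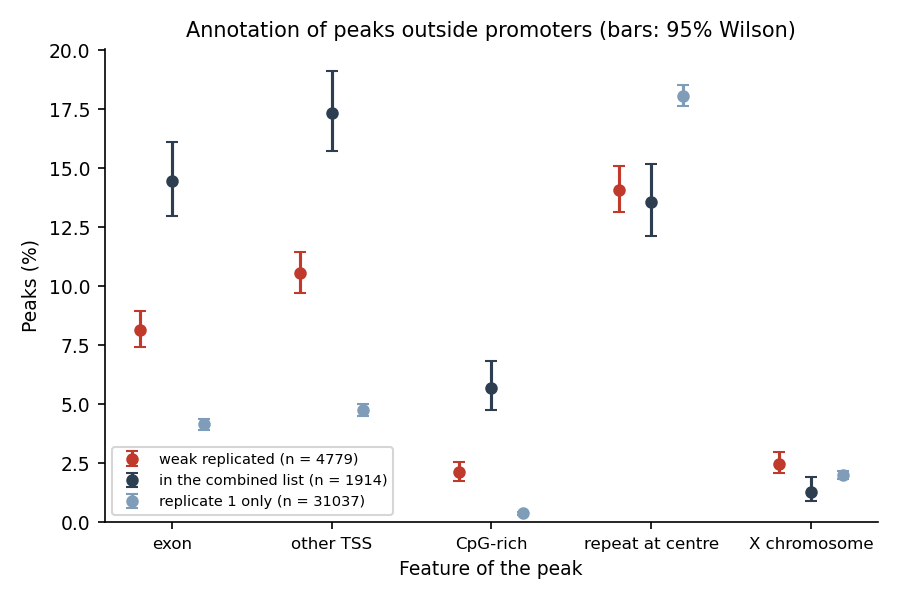
Percent of peaks (y axis) with each feature (x axis), for members in red, strong peaks in dark blue and unreplicated peaks in light blue, with 95% Wilson intervals. For exons, other TSS and CpG-rich centres the members lie between the other sets, at 8.16%, 10.6% and 2.11%.

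Distances to the nearest TSS were bounded by the choice, since peaks in promoters were left out of members, strong and unreplicated peaks alike. The nearest 5′-most TSS was 54.9 kb away in the median, against 43.4 kb for strong and 83.1 kb for unreplicated peaks, which were not tested. It was within 5 kb for 7.43% of members and beyond 500 kb for 5.34%, and 43.6% of members lay upstream of it. Within 5 kb of a combined peak stood 95 members (1.99%) and 1.88% of unreplicated peaks (difference 0.109, -0.282 to 0.569, exact adjusted p = 0.612). Within 20 kb the difference was 2.29 points (exact adjusted p = 4.9e-10), and within 5 kb with replicate 2 peaks as members 0.552 (exact adjusted p = 0.012). Members and unreplicated peaks were both chosen to miss the combined list, which may share reads with both replicates. No conclusion on nearness is therefore drawn from these tests. On the X chromosome lay 119 members, or 0.696 per Mb, and autosomes held 1.46 to 2.28 per Mb. The X chromosome share was 1.31% in strong peaks and 1.72% in weak promoter peaks, which were not tested against members. It was 2.49% in members and 2.01% in unreplicated peaks (difference 0.483, 0.0465 to 0.987, exact adjusted p = 0.039). That call was lost with a reciprocal overlap of 50% (0.190, exact adjusted p = 0.554), in the upper 50% of each list by score (0.159, exact adjusted p = 0.616) and with a narrower promoter (0.440, exact adjusted p = 0.061), whereas with replicate 2 peaks as members the difference was 1.95 points (exact adjusted p = 2.2e-25).

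The members that ranked best in both lists, chosen by their worse rank, lay near or in genes of varied function. The member 26.4 kb upstream of Tnp1 led, at chr1:73041862-73042837, with scores of 40.7 and 19.4 and ranks of 2208 and 1820. A member 2.42 kb upstream of Glrx2, a mitochondrial glutaredoxin, scored 39.5 and 16.3. Another stood 6.80 kb upstream of Fgd5, an exchange factor for CDC42, at 39.5 and 18.5. Neither of these held an X-box in its centre, though both held one with 2 mismatches elsewhere in the peak. Intronic members of this group lay in Ap3s2, a subunit of the AP-3 adaptor (37.95 and 14.96), Cacna1h (37.8 and 22.0), Adamts3, a procollagen protease (36.8 and 14.2), and 1110059E24Rik (37.95 and 13.9). An intergenic member 347.8 kb from Nr3c2, the mineralocorticoid receptor gene, scored 36.5 and 13.9 and held no X-box. Of the 10 members that ranked best, 6 held an X-box in the centre, and the 2 of them on chromosome 18 are not described further.

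Among the 43 members with an exact palindrome, the 8 of highest replicate 1 score held values between 32.1 and 42.0 there, whereas their replicate 2 partners lay between 2.34 and 11.5. Their choice by replicate 1 score favoured such a gap. The member in Gas7, at chr11:67570747-67571552, scored 38.3 and only 2.34, near the end of the replicate 2 list with a rank of 21001. That 54.3 kb from the TSS of Olfm1, at chr2:28246969-28247687, scored 42.0 and 9.46. Others lay 146.9 kb from the TSS of Pde3a (36.5 and 9.23), 4.3 kb from that of Olfr1337 (33.7 and 11.5) and 30.7 kb from that of Adcyap1r1 (32.2 and 5.64). The one with Nr3c2 as nearest gene (33.5 and 8.66) stood 605.9 kb from its TSS, at the start of the pseudogene Gm7069. The rest lay in an intron of Bach2 (32.1 and 5.06) and over an exon of Cacna2d3 (35.4 and 4.99).

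At the other end, the 3 members of lowest replicate 1 score had higher scores in replicate 2. The choice fixed this in part, since no member met a replicate 2 peak that scored below 2.23. They lay in an intron of Grik2, a kainate receptor gene (2.09 and 6.03), at an alternative TSS of Cops8, a COP9 signalosome subunit (2.14 and 13.2), and at the start of the pseudogene Gm19196 (2.26 and 15.1). The Cops8 member held an X-box with the substitutions G4T, T8G and C11T, and the other members of this group held none.

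Of 21853 protein-coding genes, 1678 (7.68%) held a member in an exon or intron, 1349 of them a single one, 214 a pair and 115 at least 3. Such genes were long, with a median span of 102.8 kb against 16.9 kb for all genes. The most members stood in Gm20388 (16, of which 13 with an X-box), a gene model of 4435 kb that runs across other genes such as Piezo1 and Jph3. Dlg2, which encodes a synaptic scaffold protein, held 9 over 1972 kb, and 8 of these had an X-box. Fgfr2, a receptor gene of fibroblast growth factors, held 8 over a model of 2961 kb that likewise spans other genes, and 6 had an X-box. Of these, only the member at chr7:133097449-133097723 had Fgfr2 as the gene of its nearest TSS, and it also lay in Ctbp2. The others lay nearest to a TSS of Hmx3, Gpr26, Oat, Fam53b or Zranb1. Ank3, for the membrane adaptor ankyrin-G, and Camta1, for a calmodulin-binding transcription factor, held 7 each, with an X-box in 1 and 6 of them. Cdh13, an atypical cadherin gene tied at 7, had an X-box in 3.

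Among regulators, 4 of the 8 RFX family genes held a member, Rfx1, Rfx2, Rfx3 and Rfx4, beside 7.68% of all genes. The median span of the family was 55.4 kb, and no test was made of this list. The member in Rfx3, which encodes a factor of ciliogenesis, scored 26.3 and 5.27. In Rfx4, a gene of brain and testis isoforms, a member at an alternative TSS scored 16.7 and 4.99 and held no X-box. Members in Rfx1 and Rfx2 scored 14.98 and 10.9, and 14.5 and 5.08, and each held an X-box. The Rfx2 member, at chr17:56819611-56820174, lay in an intron 11.1 kb downstream of the TSS. Of 16 regulators of multiciliogenesis and spermiogenesis, 2 held a member. Tbpl1, the TBP-like factor of round spermatids, did so at an alternative TSS (10.3 and 15.5), and Gmnc, the geminin-related regulator of multiciliated cells, also at an alternative TSS (8.28 and 3.06). Neither held an X-box in the centre. Of 11 RNA regulators of spermatid development, Tdrd5, a tudor protein of germ granules, held 1 (9.31 and 7.998), with the substitutions G4A and C11A.

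Of 25 genes for adhesion and polarity at the contact of Sertoli cells and spermatids, 6 held a member, namely Cadm1, Cdh1, Fndc3a, Nectin1, Pard3 and Pard3b. In Fndc3a one member scored 39.0 and 12.6 and another 26.8 and 13.7, of which the first held an X-box. Pard3b held a member with a single substitution, G4A, and scores of 19.6 and 8.02. The median span of these 25 genes was 66.9 kb. The count stands beside 7.68% of all genes, and no test was made of this list.

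Structural genes of cilia and flagella were counted in the same way. None of 31 genes of intraflagellar transport held a member, and 1 of 24 genes of axonemal dynein arms and their assembly did, Dnah8, a heavy chain (11.0 and 4.85), with an X-box of 3 mismatches. In the BBSome list 1 of 13 did, Bbs9, with members at 11.8 and 7.998 and at 3.64 and 4.08, neither with an X-box. Of 21 manchette and acrosome genes, Spata16, an acrosome protein gene (20.6 and 14.6), and Spag16, for a protein of the central apparatus of the axoneme (17.4 and 5.18), held a member. That in Spag16 had an X-box with 2 mismatches in its centre and that in Spata16 had none there. Of 15 Hedgehog pathway genes, the coreceptor gene Boc held 1 (21.2 and 5.86), without an X-box, and none of 24 genes of meiotic prophase did. No test was made of these lists, whose counts stand beside 7.68% of all genes.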

How the data were processed

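RFX2 ChIP-seq of 2 WT testis samples, each with an input, was processed by the authors. Per the labels and the study's supplementary methods, CASAVA 1.8.2, Bowtie 0.12.7 (reads with several locations discarded) and MACS2 2.0.10.20130520 (against input, no fragment model) were used with build GRCm38. The library of replicate 2 was run a second time, and that run was cleared of reads matching human DNA. The deposited replicate lists give a −log10 p-value or q-value per peak (which is not stated). The study describes a default and a relaxed call per replicate, and which was deposited is not stated. Read as −log10 p, the lowest score of 2.03 among unreplicated peaks stands close to the cut-off of the relaxed call. The study kept peaks by their irreproducible discovery rate between replicates. Overlap does not stand in for that filter, which members may have failed. The deposited combined list gives a score, a fold enrichment ratio, and −log10 p- and q-values, of which only positions and the lowest −log10 p were used. Its peak names begin with "all", so it may share reads with both replicates, and it cannot serve as independent replication.

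The members, gene lists, motifs and tests were chosen with earlier results of these data known. Sequence came from GRCm38 patch 6 and genes from GENCODE mouse release 21 (Ensembl 96), whose primary coordinates are those of the lists (Ensembl 70). The partner of a member was the overlapping replicate 2 peak of highest score. Overlaps were checked with bedtools 2.31.1. Shares carry 95% Wilson and differences Newcombe intervals. Sets were compared by two-sided Fisher's exact tests (SciPy 1.17.1), adjusted by Benjamini-Hochberg over 13 comparisons, centres and flanks by exact McNemar tests, and score bands over 7 tests, at a threshold of 0.05. Named peaks were the 10 with the best worse rank, the 8 with fewest mismatches, the 3 of lowest score, those nearest each limit, the 5 genes with most members, and the 2 highest-scoring members per gene list. The other adhesion and RFX genes, Cdh13 and the members at other start sites were named after their values were seen. On 4779 simulated windows, 100% of planted X-boxes were found and 0.504% of the others were called.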

Additional observations from a re-analysis of the deposited data

How the results depend on the processing

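Of 131 recomputed values, 117 were classed as the same as in the main setting. Tested differences so classed kept their direction and their side of the threshold. Counts have neither, and smaller changes in them were also classed as the same. One such count was 3333 members in the upper 50% of each list by score, against 4779. With a reciprocal overlap of 50% there were 2491 members, the X-box share differed from strong peaks by -2.63 points (exact adjusted p = 0.155), and the X chromosome share differed from unreplicated peaks by 0.190. That difference was 0.159 in the upper 50% of each list by score and 0.440 with the narrower promoter, but 1.95 with replicate 2 peaks as members. Within score bands, an alternative added after seeing the data, the X-box difference from unreplicated peaks was 2.64, 4.12 and -1.42 points at 12 to 20, 20 to 30 and 30 to 60. With 50% of the peak soft-masked as the rule for repeats, members exceeded strong peaks by 2.68 points (exact adjusted p = 5.7e-07). The share near a combined peak exceeded that of unreplicated peaks by 0.552 with replicate 2 peaks as members and by 2.29 within 20 kb. The cause of these changes was not tested. Without a replicate the number of peaks ran from 17484 to 35816, and 2 to 6 other motifs were called (4 with both). The X-box exceeded the flank by 17.8 to 19.1 points, against 54.4 with both.

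No paired analysis was possible because inputs had no peak list of their own here, so that scores exist in 1 group only. The 2 ChIP replicates give no spread between animals for a share taken over both lists. Read depth is unknown, and its part in the weak scores cannot be told apart from weak enrichment.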
